A study of Mus musculus with 4 samples.

Results

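The genes that write and erase DNA methylation were followed in fetal brown adipose tissue (BAT), taken by name as Dnmt1, Dnmt3a, Dnmt3b, Uhrf1, Tet1, Tet2 and Tet3. These 7 genes were found among 22298 genes listed by Ensembl identifier, and all 7 passed the filter on low counts that left 12888 genes for testing. The libraries came from fetal BAT taken at E18.5 for RNA-seq, and their labels read C57BL/6 and male. The study's methods name the mice as C57BL/6J and give PCR as the way fetal sex was typed. In the control group the dams drank sterilized tap water through gestation, and in the fructose group they drank water with 20% (w/v) fructose, with 2 libraries per group. No genotype other than the strain is given, and the number of fetuses or litters behind a library is not given in the sources used here. The sources give 2 samples per group without saying whether the libraries of a group came from separate animals, so the p-values measure the spread between these samples, which may be technical.

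DNA methylation in mammals sits mostly on cytosines followed by guanine (CpG). Dnmt3a and Dnmt3b place new methyl groups, while Dnmt1 copies the pattern onto the new DNA strand after replication, brought there by Uhrf1, which recognises the half-methylated site. Tet1, Tet2 and Tet3 oxidise the methyl group with oxygen, iron and 2-oxoglutarate, a first step towards its removal, and these enzymes are studied in fetal programming by diet because methyl marks can be kept through cell division.

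Counts on genes totalled 19224529 (control 1), 18542897 (control 2), 22461298 (fructose 1) and 23645147 (fructose 2). The libraries went against their labels in one respect, since 4 genes of chromosome Y (Uty, Kdm5d, Ddx3y and Eif2s3y) summed to 422 and 390 counts in the control libraries and to 0 counts in both fructose libraries. The sex signal and the fructose treatment therefore cannot be told apart, and each control or fructose value below belongs to a library so labelled. The share of counts on mitochondrially encoded genes was 5.89% and 6.49% in control and 10.8% and 11.2% in fructose. Of the 13 tested skeletal muscle markers, 12 were called higher in fructose and 0 lower by edgeR's test, with a median log2 fold change of 1.42 and a summed level of 303.1, 392.6, 875.8 and 650.3 CPM in control 1, control 2, fructose 1 and fructose 2. CPM is the count scaled to a common library total after TMM normalization. Of the 9 tested erythroid markers, 0 were called higher and 5 lower, and their summed level was 19213, 15301, 11772 and 12147 CPM in the same order.

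The label of the tissue was checked against its markers. Ucp1, the uncoupling protein of brown fat, was the most abundant of 11 brown adipocyte markers, at 9709, 12430.04, 11009 and 9609.7 CPM in control 1, control 2, fructose 1 and fructose 2, with groups that overlapped. No brown adipocyte, pan-adipocyte or skeletal muscle marker was at 0 in every library. In bulk tissue, fewer cells of a type and less RNA per cell cannot be told apart.

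Across 12884 tested genes with a known length, the log2 fold change of fructose against control rose with the summed length of the gene's exons (Spearman's rho 0.462 across genes) and fell with GC content (rho -0.501). Between the 2 control libraries these values were 0.017 and 0.133, and between the 2 fructose libraries 0.167 and -0.205. Genes are not independent replicates, and no p is given. The members differ in length. Dnmt3a, Tet1, Tet2 and Tet3 have 16.6, 15.5, 16.9 and 16.7 kb of exon, longer than 98.2%, 97.6%, 98.3% and 98.2% of tested genes, whereas Dnmt1, Dnmt3b and Uhrf1 have 7.38, 5.11 and 4.26 kb against a median of 4.49 kb. Fold changes with these trends removed from each library are therefore set beside the members' own.

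The de novo writer Dnmt3a and the erasers Tet2 and Tet3 were higher in the fructose libraries. With edgeR's quasi-likelihood test and Benjamini-Hochberg adjustment over all tested genes, 3 of the 7 members were called higher at an adjusted p under 0.05 and 0 were called lower, where 15.5% of all tested genes were called higher and 10.7% lower. The maintenance pair Dnmt1 and Uhrf1, the de novo writer Dnmt3b and the eraser Tet1 were not called. The median log2 fold change of the members was 0.34, and that of all tested genes 0.0025. Both fructose libraries lay above both control libraries for 5 members, as they did for 33.4% of tested genes, and below for 0 members, as for 31.6% of tested genes. With the gene length trend removed, 0 of the 7 members were called by edgeR, and 1 member was higher at an unadjusted p under 0.05. In that setting 9.86% of all tested genes were called higher and 8.81% lower. The median log2 fold change of the members was then 0.089, and that of all tested genes -0.019. With both trends removed these medians were 0.086 and -1e-04.

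**Figure D1:**
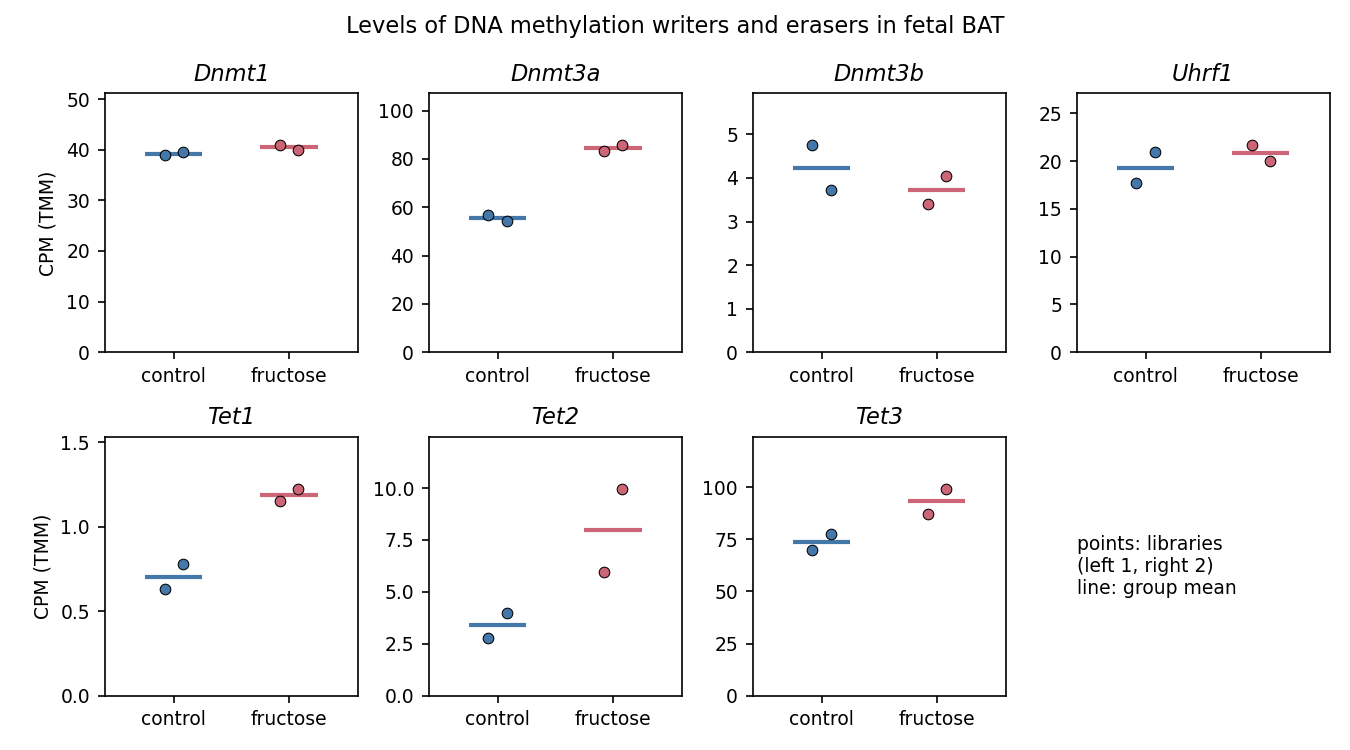
Level of each member in CPM after TMM normalization (y axis, from 0, a scale of its own for each gene) in the control and fructose groups (x axis). Points are the 2 libraries of a group and lines are group means. Dnmt3a stands at 56.8 and 54.4 CPM in control and 83.3 and 85.6 CPM in fructose, while the groups of Dnmt3b and Uhrf1 overlap.

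Dnmt3a (ENSMUSG00000020661), on the plus strand of chromosome 12 from 3806007 to 3914443 (GRCm38/mm10), had 1075, 981, 1883 and 2097 counts in control 1, control 2, fructose 1 and fructose 2. These are levels of 56.8, 54.4, 83.3 and 85.6 CPM in the same order. The libraries of each group lay close together, and the groups were well apart. The control mean was 55.6 ± 1.65 CPM and the fructose mean 84.5 ± 1.66 CPM (SD over 2 libraries), a fold of 1.52. The log2 fold change was 0.60 (standard error 0.08, 95% confidence interval 0.42 to 0.78), with an adjusted p of 0.000662 from edgeR's quasi-likelihood test. With the length trend removed it was 0.089 (adjusted p = 0.508 from edgeR), and with the GC content trend removed 0.66 (adjusted p = 0.000821). Over the 14 alternatives computed, the adjusted p of Dnmt3a lay between 1.63e-07 and 0.508. An antisense gene, Dnmt3aos, shares 133 bases with its exons and is not listed among the counted genes. Whether counting used the strand is not given in the sources used here, so reads from both cannot be told apart.

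Dnmt3b (ENSMUSG00000027478), the other de novo methyltransferase, on the plus strand of chromosome 2 from 153649450 to 153687730, had 90, 67, 77 and 99 counts in control 1, control 2, fructose 1 and fructose 2. Its levels were 4.75, 3.72, 3.41 and 4.04 CPM. The highest value was in a control library and the lowest in a fructose library, and the groups overlapped. The log2 fold change was -0.18 (standard error 0.24, 95% confidence interval -0.70 to 0.33, edgeR adjusted p = 0.601), so that a change of either sign was within the interval at this depth. It was 0.0017 without control library 1, -0.24 with the length trend removed and -0.14 with both trends removed. Dnmt3c, a rodent paralog of Dnmt3b active in the male germline, was at 0 counts in all 4 libraries.

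Dnmt1 (ENSMUSG00000004099), the maintenance methyltransferase, on the minus strand of chromosome 9 from 20907209 to 20959888, had 736, 712, 924 and 980 counts. These correspond to 38.9, 39.5, 40.9 and 40.02 CPM in control 1, control 2, fructose 1 and fructose 2. All 4 levels were within a narrow band, with both fructose libraries slightly above both control libraries. The log2 fold change was 0.046 (standard error 0.09, 95% confidence interval -0.15 to 0.24), with an adjusted p of 0.738 from edgeR. Its sign turned with the length trend removed (-0.13).

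Uhrf1 (ENSMUSG00000001228), the partner that guides Dnmt1 to replicated DNA, on the plus strand of chromosome 17 from 56303321 to 56323486, had 335, 377, 490 and 491 counts. Its levels were 17.7, 20.9, 21.7 and 20.05 CPM in control 1, control 2, fructose 1 and fructose 2. Control library 1 was the lowest, and control library 2 lay between the fructose libraries. The log2 fold change was 0.11 (standard error 0.13, 95% confidence interval -0.16 to 0.39, edgeR adjusted p = 0.545), and it was -0.0075 without control library 1. It stayed at 0.11 with the length trend removed, and was 0.21 with the GC content trend or both trends removed.

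Tet2 (ENSMUSG00000040943), an eraser that lacks the DNA-binding CXXC domain of Tet1, on the minus strand of chromosome 3 from 133463679 to 133545139, had 53 and 72 counts in control and 135 and 244 counts in fructose. Its levels were 2.80 and 3.99 CPM for the control libraries, against 5.97 and 9.96 CPM for fructose libraries 1 and 2. Fructose library 2 was far above the other 3 libraries, and the groups did not overlap. The control mean was 3.40 ± 0.85 CPM and the fructose mean 7.97 ± 2.82 CPM (SD over 2 libraries). The fold from edgeR's fit was 2.36. Its log2 fold change of 1.24 was the largest of the members in each of the alternatives computed (standard error 0.27, 95% confidence interval 0.64 to 1.83, edgeR adjusted p = 0.0071). The call was lost without fructose library 2 (0.82, adjusted p = 0.0718 from edgeR) and with the length trend removed (0.71, adjusted p = 0.0684). With both trends removed the value was 0.60 (edgeR adjusted p = 0.153), and over the 14 alternatives the adjusted p lay between 4.46e-07 and 0.153. An antisense gene, Gm42567, shares 43 bases with the exons of Tet2 and is not listed among the counted genes.

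Tet3 (ENSMUSG00000034832), the TET gene with the highest level in all 4 libraries, on the minus strand of chromosome 6 from 83362373 to 83459084, had 1325 and 1393 counts in control and 1968 and 2429 counts in fructose. These are 69.95 and 77.3 CPM for the control libraries, against 87.05 and 99.2 CPM for fructose libraries 1 and 2. The groups did not overlap, and fructose library 2 was again the highest. The control mean was 73.6 ± 5.18 CPM and the fructose mean 93.1 ± 8.59 CPM (SD over 2 libraries), a fold of 1.27. The log2 fold change was 0.34 (standard error 0.09, 95% confidence interval 0.14 to 0.54, edgeR adjusted p = 0.0195). Without fructose library 2 it was 0.24 and not called (edgeR adjusted p = 0.205), and with the length trend removed its sign turned (-0.18, edgeR adjusted p = 0.203). Over the 14 alternatives the adjusted p of Tet3 lay between 8.0e-04 and 0.694.

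Tet1 (ENSMUSG00000047146), an eraser best known from embryonic stem cells and germ cells, on the minus strand of chromosome 10 from 62804570 to 62908996, was the scarcest member, with 12, 14, 26 and 30 counts. Its levels were 0.634, 0.777, 1.15 and 1.23 CPM in control 1, control 2, fructose 1 and fructose 2, where 3 counts stand for 0.158, 0.166, 0.133 and 0.123 CPM. Both fructose libraries were above both control libraries, but with few counts. The log2 fold change was 0.75 (standard error 0.41, 95% confidence interval -0.14 to 1.64), and the edgeR test did not call it (adjusted p = 0.196). It was 0.27 with the length trend removed and 0.086 with both trends removed.

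**Figure D2:**
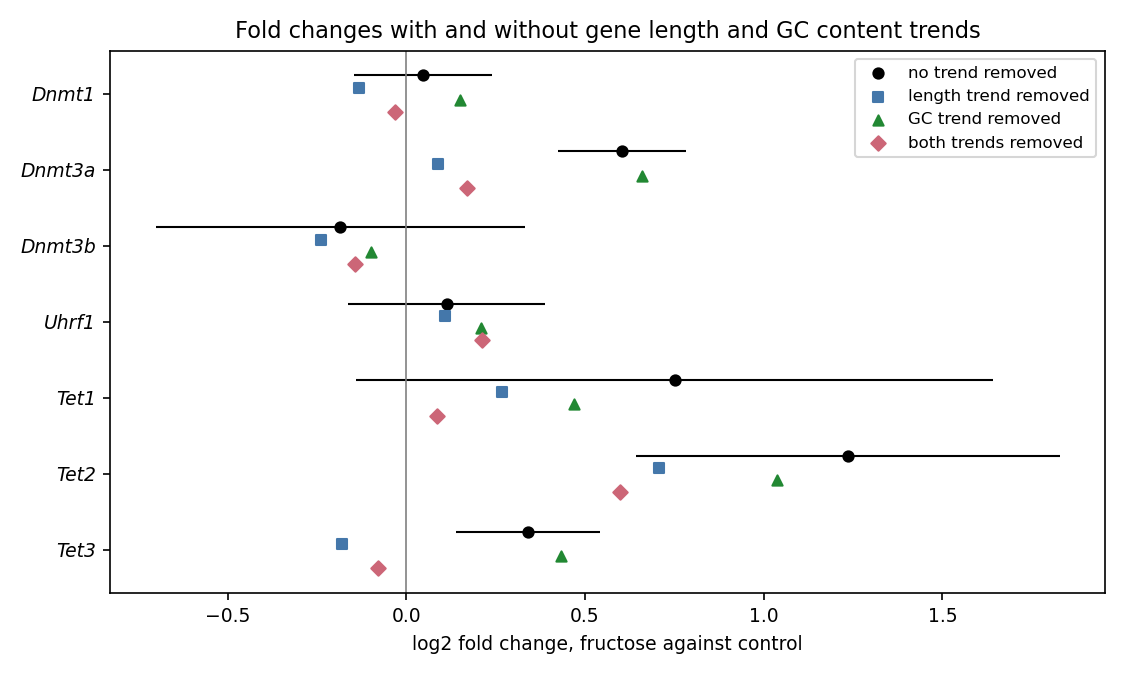
Log2 fold change of fructose against control (x axis) for each member (y axis), with no trend removed (circles, with the 95% confidence interval as a line) and with the trend of gene length, GC content or both removed from each library (squares, triangles, diamonds). Dnmt3a moves from 0.60 to 0.089 and Tet3 from 0.34 to -0.18 with the length trend removed, and both stay above 0 with the GC content trend removed.

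Levels were compared between genes as CPM per kilobase of exon, over all 4 libraries. Dnmt1 averaged 5.40 CPM per kilobase (range 5.27 to 5.54), Tet3 4.99 (4.19 to 5.94), Uhrf1 4.72 (4.15 to 5.09) and Dnmt3a 4.21 (3.27 to 5.15). The ranges of neighbours in this order overlapped, while the range of Dnmt1 lay above those of Uhrf1 and Dnmt3a. The order differed between the groups. By control means it was Dnmt1 (5.31), Uhrf1 (4.53), Tet3 (4.41) and Dnmt3a (3.34 CPM per kilobase), and by fructose means Tet3 (5.58), Dnmt1 (5.48), Dnmt3a (5.08) and Uhrf1 (4.90 CPM per kilobase). Below these 4 genes, without overlap between neighbours, came Dnmt3b at 0.779 CPM per kilobase (0.667 to 0.931), Tet2 at 0.337 (0.166 to 0.591) and Tet1 at 0.0612 (0.041 to 0.0793). By mean level per kilobase, Dnmt1 stood above 60.6% of tested genes, Dnmt3b above 22.7%, Tet2 above 11.1% and Tet1 above 0.551%. The order of the upper 4 depended on the length used, since with the longest transcript in place of all exons it was Tet3, Dnmt3a, Dnmt1 and Uhrf1.

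The makeup of each family was described per library from these levels per kilobase. With 2 libraries against 2, no exact permutation test can reach a p under 0.05, so the shares were not tested. Among the DNMT genes, Dnmt3a made up 35.5% and 35.0% of the summed level in control and 44.6% and 45.3% in fructose. The share of Dnmt1 was 54.8% and 57.3% in control against 49.4% and 47.7% in fructose. Dnmt3b made up 9.69%, 7.78%, 5.95% and 6.97% of the sum. Dnmt1 was thus the larger part in all 4 libraries on this scale, by a smaller margin in fructose. These shares have no trend removed. Dnmt3a exceeded Dnmt1 in log2 fold change by 0.56, and by 0.22 with the length trend removed and 0.20 with both trends removed. The ratio of Dnmt3a to Dnmt1 was 0.647 and 0.611 in control and 0.903 and 0.949 in fructose. With the longest transcript as the length, Dnmt3a held 43.2% and 42.5% in control and 52.6% and 53.3% in fructose, above Dnmt1 in both fructose libraries.

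Among the TET genes, Tet3 held 95.3% and 94.2% of the summed level per kilobase in control and 92.4% and 89.9% in fructose. Tet2 held 3.77% and 4.82% in control against 6.27% and 8.93% in fructose, and Tet1 0.932%, 1.02%, 1.32% and 1.20%. Tet3 was therefore nearly all of the TET transcript in each library, and the share of Tet2 was highest in fructose library 2. The summed TET level was 0.458 and 0.526 of the summed DNMT level in control and 0.503 and 0.582 in fructose, with groups that overlapped. The ratio of Uhrf1 to Dnmt1 also overlapped, at 0.788 and 0.917 in control and 0.919 and 0.868 in fructose.

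**Figure D3:**
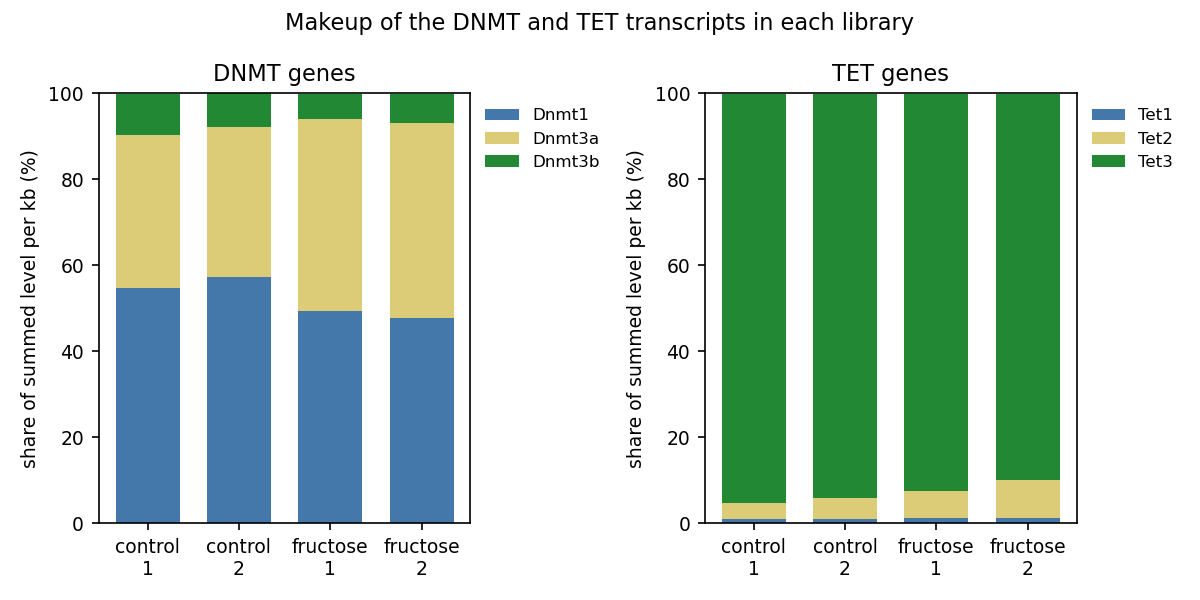
Share of each gene in the summed level per kilobase of exon of the DNMT genes (left) and the TET genes (right), in percent (y axis, from 0), in each of the 4 libraries (x axis). Dnmt3a takes 35.5% and 35.0% of the DNMT bar in control against 44.6% and 45.3% in fructose, and Tet3 takes 89.9% or more of every TET bar. No trend of length or GC content was removed.

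For each member, the tested gene with the nearest pattern was found by the root mean square distance of log2 CPM, centred on each gene's mean over the 4 libraries. It was Mcfd2 for Dnmt1 (distance 0.00682), Gsk3b for Dnmt3a (0.00968), Serpinb9 for Dnmt3b (0.0145), Uhrf1 had Limd1 (0.00169), Tet1 had Smpx (0.0228) and Tet3 had Mecom (0.00322). Tet2 stood apart from other genes in this measure, with Kcnd3 as its nearest gene at 0.0791 and 2 genes within 0.1. Dnmt1 and Dnmt3a had 2427 and 518 genes within that distance, so over 4 libraries such likeness is shared by many genes.

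Both strands of the RefSeq promoter windows (GRCm38.p6, 250 bases before to 50 after an annotated start) were searched for letters bound by E2F factors, which govern genes of DNA replication. The letters were TTTCCCGC, TTTCGCGC, TTTGCCGC and TTTGGCGC. All 7 members had a window, and 744 of 32851 windows (2.26%) held a match. Each of these sequences itself holds a CpG, and the share among windows of like CpG count was not computed. Among the members, matches lay in a window of Dnmt1 (2 matches) and in a window of Uhrf1 (1 match), the maintenance pair. The stretches are shown for that pair, 5′ to 3′ on the gene's strand, with the matched letters in capitals. The first Dnmt1 stretch holds the match on the opposite strand.
Dnmt1, chr9:20952824-20952853, minus strand: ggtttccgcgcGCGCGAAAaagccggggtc
Dnmt1, chr9:20952574-20952601, minus strand: gcggggcagcgTTTGGCGCgggctgtgc
Uhrf1, chr17:56304117-56304146, plus strand: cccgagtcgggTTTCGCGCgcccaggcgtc
The matches begin at base -219 and base 34 of the Dnmt1 window and at base -185 of the Uhrf1 window, counted from the annotated start. A match is a description and not a bound site, and binding was not tested.

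The windows also differed in CpG, the sequence these enzymes act on. The median over all windows was 7 CpG, and Tet2 had 57 in its window, more than 99.8% of windows. Dnmt3a had 46 and 47 in 2 overlapping windows and 18 in another, Dnmt3b had 30, Tet3 22 and Tet1 17. The Dnmt1 windows had 2, 12 and 33 and the Uhrf1 windows 12 and 33, with the E2F-type letters in the CpG-rich window of each.

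Since Dnmt1 and Uhrf1 work in dividing cells, genes of S phase and mitosis were set beside them. Of the 31 tested, 2 were called higher and 3 lower by edgeR, with a median log2 fold change of 0.003. For this list and each list below, edgeR called 15.5% of all tested genes higher and 10.7% lower with no trend removed. Mki67, a marker of dividing cells, had 42 and 49 counts in control and 192 and 196 in fructose. Its log2 fold change was 1.74 (edgeR adjusted p = 0.000375, standard error 0.21), and that of Ccne2, a cyclin of S phase entry, 1.39 (adjusted p = 0.0128). Ccnb2, a mitotic cyclin, and Gmnn, an inhibitor of replication licensing, were lower by edgeR (log2 fold changes -0.44 and -0.34, adjusted p = 0.0357 and 0.0384). The most abundant of the list, Rrm1 and E2f2, had overlapping groups, at 49.5, 58.1, 49.4 and 49.7 CPM and at 50.6, 57.4, 56.1 and 42.3 CPM in control 1, control 2, fructose 1 and fructose 2. With both trends removed, Mki67 kept its call (1.38, edgeR adjusted p = 0.00156), while Ccne2, Ccnb2 and Gmnn did not. With DESeq2, 2 genes of the list were higher and 0 lower. Ccnb2 and Gmnn had similar log2 fold changes there (-0.45 and -0.35) but were not called (DESeq2 adjusted p = 0.0871 and 0.102).

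Partners that bring the writers to chromatin or set the marks they read were listed together. Of 17 tested, 6 were higher and 2 lower by edgeR, and 4 and 2 by DESeq2, with a median of 0.11. By edgeR, 15.5% of all tested genes were higher and 10.7% lower, and 5.43% and 6.62% with both trends removed. The 6 include Hells, described after the other partners, and with at least 10 counts in every library 5 of 16 were higher. The calls depended on single libraries, with 4 higher and 0 lower without fructose library 1 and 2 higher and 1 lower without fructose library 2, and with both trends removed 1 was higher and 0 lower. Zfp445, a zinc finger protein that protects methylation at imprinted genes, was at 5.33 and 5.10 CPM in control and 14.8 and 19.3 CPM in fructose. Its log2 fold change of 1.71 (edgeR adjusted p = 0.000178, standard error 0.17) was 1.32 with both trends removed and still called. Trim28, the corepressor that such zinc finger proteins recruit, was lower, at 122.1 and 118.5 CPM in control and 90.4 and 94.7 CPM in fructose (log2 fold change -0.38, edgeR adjusted p = 0.00591, standard error 0.08). Ehmt2, an H3K9 methyltransferase and the most abundant of the list, was also lower (-0.33, edgeR adjusted p = 0.0101), and Nsd1, which places the H3K36 methylation read by Dnmt3a, was higher (0.40, edgeR adjusted p = 0.00646). Nsd1 turned to -0.13 with the length trend removed, and Trim28 and Ehmt2 lost their calls with the GC content trend removed.
Hells, a chromatin remodeller needed for normal methylation, was chosen after its values were seen, so they are a description. It had 6 and 6 counts in control and 33 and 26 in fructose, and passed the filter on low counts by its fructose libraries. DESeq2 did not call it (adjusted p = 0.0619), nor did edgeR with the GC content trend removed (adjusted p = 0.0931). Dnmt3l, the catalytically inactive cofactor of Dnmt3a, had 2 and 1 counts in control and 0 in both fructose libraries, and Dppa3 had 0 in all 4, so that neither was detectable beyond 3 counts.

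Readers of methylated CpG were listed with relatives of the same protein family. Of these 10 genes, 4 were called higher and 1 lower by edgeR, and 3 and 1 by DESeq2, with a median log2 fold change of 0.39. This median was 0.061 with the length trend removed and 0.12 with both trends removed. Zbtb33 was at 3.80 and 4.11 CPM in control and 8.23 and 7.76 CPM in fructose (log2 fold change 1.01, edgeR adjusted p = 0.00321, standard error 0.19). Zbtb38 rose by 0.95 (edgeR adjusted p = 0.00684). Mbd3, a subunit of the NuRD repressor complex that in mammals does not itself prefer methylated CpG, was the most abundant of the list by the mean over the 4 libraries. It was at 87.6 and 88.4 CPM in control and 68.9 and 65.5 CPM in fructose (-0.39, edgeR adjusted p = 0.00543). Mbd6, above Mbd3 in both fructose libraries, had overlapping groups, at 84.3, 70.7, 77.01 and 75.5 CPM. Zbtb33 lies on chromosome X, where the sex signal and the treatment cannot be told apart. With both trends removed, edgeR called 0 of the 10 genes, where 5.43% of all tested genes were called higher and 6.62% lower, and 3 of the 10 were higher at an unadjusted p under 0.05.

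CXXC proteins, which bind unmethylated CpG, and partners of the TET enzymes were listed together. Of 11 tested, 3 were called higher and 2 lower by edgeR, and 3 and 0 by DESeq2, with a median of 0.001. Ogt, the O-GlcNAc transferase that binds Tet2 and Tet3, was at 23.7 and 27.9 CPM in control and 53.7 and 64.8 CPM in fructose. It rose by 1.20 (edgeR adjusted p = 0.000148, standard error 0.12), kept its call with both trends removed (0.76, edgeR adjusted p = 0.0016), and lies on chromosome X. Kmt2a, an H3K4 methyltransferase, rose by 0.88 (edgeR adjusted p = 0.00124), Kdm2a by 0.35 (0.015), and Cxxc1 was lower (-0.30, 0.0224). Kmt2a lost its call with the length trend removed (0.36, edgeR adjusted p = 0.0842), and Kdm2a turned to -0.11 with that trend removed. Cxxc1 lost its call once the GC content trend was taken out. With DESeq2 its log2 fold change was similar (-0.31) but not called (adjusted p = 0.0546). The most abundant genes of the list, Hcfc1 and Kmt2b, had overlapping groups, at 130.5, 147.1, 143.1 and 134.7 CPM and at 67.5, 69.6, 72.7 and 65.02 CPM.

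Downstream of the TET enzymes, oxidised bases are cut out by base excision repair. Of 12 tested genes of this step, 0 were called higher and 2 lower by edgeR, with a median of -0.10, and at an adjusted p under 0.05 DESeq2 gave the same counts. Tdg, the glycosylase that removes the oxidised bases, was at 43.03 and 47.4 CPM in control and 41.9 and 41.2 CPM in fructose. Parp1 was the most abundant, at 101.4, 103.2, 98.9 and 95.6 CPM in control 1, control 2, fructose 1 and fructose 2. Xrcc1, a repair scaffold, and Gadd45g were lower (log2 fold changes -0.37 and -0.43, edgeR adjusted p = 0.0142 and 0.0234). Both calls were lost once the GC content trend was taken out. Gadd45g was -0.18 with the length trend removed (edgeR adjusted p = 0.294), -0.29 without control library 1 and -0.31 without fructose library 2.

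The TET enzymes use 2-oxoglutarate, made by isocitrate dehydrogenases, and are aided by vitamin C. Of 9 tested genes of this supply, 2 were called higher and 3 lower by edgeR, with a median of -0.063. Without fructose library 1 these counts were 1 and 0, and without fructose library 2 they were 0 and 1. Idh3g, a subunit of the NAD-dependent enzyme encoded on chromosome X, was at 1405 and 1578 CPM in control and 1115 and 1161 CPM in fructose (log2 fold change -0.39, edgeR adjusted p = 0.0101, standard error 0.09). Idh2 was lower (-0.33, edgeR adjusted p = 0.0203), whereas the vitamin C transporter Slc23a2 was higher (0.50, edgeR adjusted p = 0.0157). Idh2 and Slc23a2 had similar log2 fold changes but were not called without fructose library 1 (-0.32 and 0.49, edgeR adjusted p = 0.0912 and 0.0731) or without fructose library 2 (-0.32 and 0.52, adjusted p = 0.108 and 0.0648). Idh3g was -0.36 and not called without fructose library 1 (edgeR adjusted p = 0.0649). Ogdh, the most abundant, and Idh3a were at 2933, 3234, 2956 and 2668 CPM and at 1463, 1550.4, 1450.2 and 1434 CPM. With both trends removed, edgeR called 0 of the 9 genes, and 2 were higher and 2 lower at an unadjusted p under 0.05.

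The methyl donor S-adenosylmethionine is used by all DNMT enzymes. Of 10 tested genes listed for its cycle, relatives of cycle genes included, 1 was called higher and 0 lower by edgeR, with a median of 0.07. These counts were 1 and 2 with the length trend removed, 0 and 2 with the GC content trend removed and 0 and 1 with both removed. The gene called with no trend removed was Mat2a, which makes the donor outside the liver, at 85.7 and 101.1 CPM in control and 121.9 and 112.7 CPM in fructose (log2 fold change 0.33, edgeR adjusted p = 0.0247, standard error 0.09). It was 0.008 with the GC content trend removed, and it was not called without control library 1 or without fructose library 1. Ahcyl1, a relative of the cycle gene Ahcy, was the most abundant of the list, at 398.2, 418.1, 405.9 and 424 CPM. Ahcy itself was at 50.7, 50.3, 47.4 and 48.2 CPM in control 1, control 2, fructose 1 and fructose 2. The liver genes Mat1a and Bhmt were at 0 counts in all 4 libraries.

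Germline genes that DNA methylation keeps silent in somatic tissue were near the floor. Of 18 listed, 13 had at most 3 counts in every library, 7 of them at 0 in all 4, and 1 passed the filter. This was Brdt, with 31, 29, 43 and 34 counts and a log2 fold change of 0.016 (edgeR adjusted p = 0.978). Sycp3, the next in level and a protein of meiotic chromosomes, had 1 and 1 counts in control and 5 and 21 in fructose, most of them in fructose library 2, and was below the filter. Piwil2 (1, 1, 3 and 10 counts) and Mael (0, 0, 0 and 5 counts), chosen after their values were seen, also had most of their counts there. Other genes of the list went the other way. Tdrd1 had 1, 4, 0 and 1 counts, and Dazl, Syce1 and Stk31 each had 2, 0, 0 and 0. With no filter on low counts, edgeR called 1 of 11 genes of the list higher and 0 lower, with a median log2 fold change of -0.33. At so few counts this call is a description.

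Other markers of the tissue's cells were listed in the same way, with calls by edgeR and the marker highest by the mean over the 4 libraries. Endothelial markers had 0 called higher and 3 lower of 10 (most abundant Cdh5, summed level 1869, 1843, 1637 and 1709.97 CPM), and macrophage markers 1 higher and 2 lower of 10 (Csf1r, 259.2, 195.5, 196.9 and 204.1 CPM). Smooth muscle markers had 1 higher and 0 lower of 9 (Pdgfrb, 462.2, 475.6, 466.7 and 433.9 CPM). Of 10 fibroblast markers (Col3a1, 5216, 4508, 5099 and 5159.7 CPM) and 7 Schwann cell and nerve markers (S100b, 108.5, 118.7, 118.2 and 107.4 CPM), 0 were called by edgeR or DESeq2, and at an unadjusted p under 0.05 edgeR gave 2 and 0. Pan-adipocyte markers had 2 higher and 4 lower of 9 (Fabp4, 18145, 17154, 15771 and 15583 CPM), and brown adipocyte markers 3 higher and 2 lower of 11. DESeq2 gave 2 endothelial markers lower, 0 macrophage markers lower and 2 brown adipocyte markers higher, with the other counts the same. Acta1 was the most abundant skeletal muscle marker and Hbb-bs the most abundant erythroid one. The part of these cells, of the mitochondrial share and of the sex signal in the levels of Dnmt3a, Tet2 and Tet3 was not tested.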

How the data were processed

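RNA-seq of fetal BAT was analysed in 4 libraries, 2 per group, grouped by their labels. The authors deposited raw counts per gene, and per the submitters' processing notes used fastp, Bowtie2 2.0.0.5, TopHat2 2.0.0 and StringTie 2.2.0 on mm10. The study's methods add a merge of the assembled transcripts by Cuffmerge before counts were taken. The program that counted and its strand setting are not given in the sources used here. Symbols came from GENCODE (GRCm38), where 43 of 22298 identifiers were missing, and 241 of 242 listed symbols were found (Ahsp was not).

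Genes kept by filterByExpr were tested with edgeR 4.0.16 in R 4.3.3 (quasi-likelihood, two-sided, TMM, no covariate), and p-values were adjusted by Benjamini-Hochberg. Totals of 18542897 to 23645147 counts make 3 counts equal to 0.123 to 0.166 CPM, which covers counting error only. Within groups, libraries differed beyond sampling noise (chi-square per degree of freedom 13.1 in control and 8.45 in fructose).

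The members and lists were chosen with earlier results of these data known. Genes named, with a few left out, are the members, up to 4 called genes with the smallest adjusted p and the 2 most abundant of each pathway list, the most abundant of each marker list, Y-linked genes and the nearest patterns. Defining markers at 0 were also to be named.

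Alternatives were DESeq2 1.42.0, its size factors, library size only, no count filter, a minimum of 10 counts per library, the replicate block, removal of length or GC content trends (lowess, span 0.3), the longest transcript as length and each library left out. The tests were checked on simulated counts with no GC content trend and no sex signal put in. Single-library tables held the same counts and were not used. DNA methylation itself was not measured, and set tests were not run.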

Additional observations from a re-analysis of the deposited data

How the results depend on the processing

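The calls of Dnmt3a, Tet2 and Tet3 held with DESeq2, its size factors, library size only, both count filters and GC content removal, and 3 members were called higher in each. With the length trend removed, 0 were called by edgeR: Dnmt3a was 0.089, Tet2 0.71, Tet3 -0.18 and Dnmt1 -0.13, and also Nsd1 -0.13 and Kdm2a -0.11. With both trends removed, 0 members were called: Dnmt3a was 0.17, Tet2 0.60, Tet3 -0.080, Dnmt1 -0.030, Nsd1 -0.19 and Kdm2a -0.12. The cause was not tested. For the other genes picked from the lists, 98 values lost the call with the same sign, 6 lost it with a turned sign (Nsd1 and Kdm2a) and 231 kept it.

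The replicate numbers are shared by the groups, but samples with the same number did not deviate together (correlation -0.027), so they were not treated as paired. The replicate block changed no member's call (Dnmt3a 0.60, Tet2 1.21, Tet3 0.34; 2117 genes higher and 1441 lower). With the replicate block and both trends removed, 0 members were called: Dnmt3a was 0.17, Tet2 0.58, Tet3 -0.079, Dnmt1 -0.030, Nsd1 -0.19 and Kdm2a -0.12, with 934 genes higher and 1007 lower.

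Over all tested genes, 2001 were higher and 1379 lower (59.2% of calls higher). These counts were 1271 and 1135 without the length trend, 1091 and 1132 (49.1% higher) without the GC content trend and 700 and 853 (45.1% higher) without both. Library size only gave 2242 and 857 (72.3% higher), and DESeq2 1366 and 1053.

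With each library left out in turn, where the lone library of a group is assumed to vary like the other group, the log2 fold change lay from 0.57 to 0.63 for Dnmt3a, 0.82 to 1.56 for Tet2, 0.24 to 0.43 for Tet3, 0.61 to 0.90 for Tet1, 0.031 to 0.064 for Dnmt1, -0.35 to 0.0017 for Dnmt3b and -0.0075 to 0.24 for Uhrf1. From 1 to 3 members, 1207 to 2225 genes higher and 485 to 1700 genes lower were called, the fewest in each case without fructose library 2, where Dnmt3a alone of the members was called and 71.3% of calls were higher. Calls in the lists also varied. They ranged from 1 to 4 higher and 0 to 3 lower for S phase and mitosis genes, 2 to 6 and 0 to 2 for writer partners, 3 to 4 and 0 to 1 for methyl-CpG genes, 2 to 3 and 0 to 4 for CXXC proteins and TET partners, 0 to 1 and 0 to 3 for base excision genes, 0 to 2 and 0 to 3 for the TET supply, and 0 to 1 and 0 to 2 for the methyl donor cycle.

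With the longest transcript as length, levels per kilobase were 6.78 for Dnmt1, 7.23 for Dnmt3a, 0.921 for Dnmt3b, 5.60 for Uhrf1, 0.619 for Tet2 and 7.65 for Tet3. Counts per library were fewest for Tet1 (12 to 30), Dnmt3b (67 to 99) and Tet2 (53 to 244).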
